A study of Rattus norvegicus with 18 samples.

Results

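Reads of the let-7 family members b, d, e and i (rno-let-7b and so on in rat nomenclature, 4 in all) were followed in the developing rat cerebral cortex. The members were chosen by the mature sequences that the list of nucleotide changes of the study fixes, and each list pattern fitted exactly 1 of the 692 distinct mature rat miRNA sequences in RefSeq. In addition, all reads were collected whose first 8 bases equal those of let-7b, called the let-7 start here. Tissue came from Sprague Dawley rats at 8 stages, embryonic days 10, 13 and 17 (E10, E13, E17) and postnatal days 0, 3, 7, 14 and 28 (P0, P3, P7, P14, P28), without any treatment or genetic change. According to the labels the E10 and E13 tissue was forebrain and all later tissue somatosensory cortex, and the study's methods give whole cortex for the early and its dorsolateral part for the later stages. P0 was represented by 2 tissue samples and each other stage by 1, and each of these 9 samples went through 2 sequencing runs, labelled technical replicates, which gave 18 libraries.

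The let-7 miRNAs are loaded into Argonaute proteins and repress mRNAs that pair with their seed, among them mRNAs for Lin28 proteins, Hmga2 and other factors of proliferating progenitors. In early embryonic cells Lin28 proteins bind let-7 precursors and hold back their maturation, and mature let-7 is known to accumulate as neural progenitors give way to neurons. Several genes encode the family, and its members share the seed and with it most of the target range.

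The mature sequences of the 4 members are shown because they differ at few positions, which decides how reads are told apart. They are RefSeq sequences on assembly GRCr8, written from 5' to 3' with the seed, bases 2 to 8, in capitals.
rno-let-7b: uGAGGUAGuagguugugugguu
rno-let-7d: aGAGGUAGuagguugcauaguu
rno-let-7e: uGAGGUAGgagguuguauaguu
rno-let-7i: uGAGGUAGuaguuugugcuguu
All 4 are 22 nt long and carry the same seed, as do the 5 other family members measured here (let-7a, let-7c, let-7f, let-7g and miR-98). Counted from 1 at the 5' end, let-7d begins with A (U1A from let-7b to let-7d) and therefore does not carry the let-7 start, although its seed is the same. Among all family members, let-7e and let-7a are set apart by a single change (G9U from let-7e to let-7a), and so are let-7b and let-7c (G17A from let-7b to let-7c). The closest relative of let-7i is let-7g, which differs by G17A and U19A. The genes lie apart in the genome: Mirlet7e at chr1:67350243-67350264 on the plus strand, in the cluster with Mir99b and Mir125a, Mirlet7i at chr7:60527935-60527956 on the minus strand, Mirlet7b at chr7:118684044-118684065 on the plus strand and Mirlet7d at chr17:16322273-16322294 on the plus strand, each range being that of the mature sequence.

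The libraries held 4899010 to 16590379 clean reads, and the 4 members together took 4.85% to 15.9% of a library. No library held fewer than 10906 reads of a member, so counting error was small beside the difference between runs. Levels are given as TPM, the member's share of all clean reads of the library scaled to parts in 1e6. In 6 tissue samples (E13, E17, P0 sample 1, P7, P14 and P28) the runs disagreed strongly. let-7b was 2.74 to 10.7-fold and let-7i 6.61 to 12.8-fold lower in run 1 than in run 2 of these samples, whereas let-7d was 2.13 to 5.45-fold higher in run 1. In E10, P0 sample 2 and P3 no member differed between runs by more than 2-fold. let-7e was the steadiest of the 4, with 1 tissue sample above a 2-fold difference between runs. A further library stood apart in another way: run 2 of E10 held nearly no reads that ended 3 or 4 nt before the annotated 3' end. The values are given beside the read ends. The runs are therefore given side by side throughout, and how library preparation or sequencing took part in these differences was not tested.

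**Figure D1:**
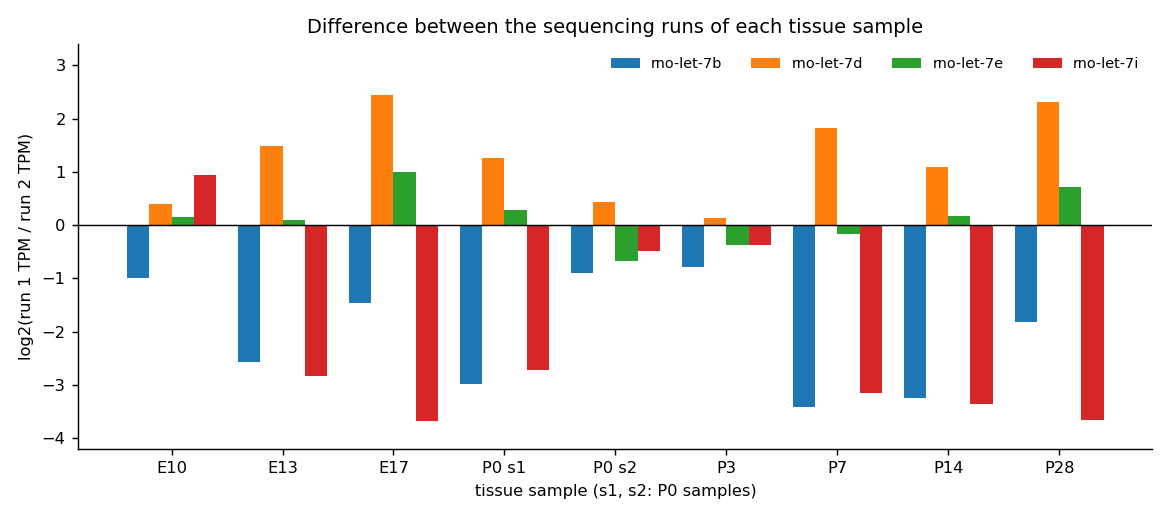
Bars give log2 of the run 1 TPM over the run 2 TPM for each of 4 let-7 members (colours) in each of the 9 tissue samples on the x axis, 1 value per bar. let-7b lies below 0 in all 9 samples and let-7d above 0 in all 9, and let-7i reaches -3.68 in E17.

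Of the 4 members, let-7b showed the largest step in level, placed between E13 and E17. In run 2, let-7b was at 8429 TPM in E10, 17026 in E13, 89436 in E17, 84717 and 112662 in the P0 samples 1 and 2, 88308 in P3, 96336 in P7, 79338 in P14 and 61061 in P28. In run 1 it was at 4215 TPM in E10, 2854 in E13, 32594 in E17, 10682 and 60308 in the P0 samples, 51340 in P3, 9004 in P7, 8306 in P14 and 17278 in P28. E17 exceeded E13 by 11.4-fold in run 1 and 5.25-fold in run 2, and within each run both forebrain samples lay below every cortex sample. With the runs averaged, the P0 samples gave 67092 ± 27425 TPM (SD, n = 2). In the order of the averaged levels the gap from E13 (9940 TPM) to the next sample, P28 (39170 TPM), was the single gap between neighbours out of 8 that exceeded this SD, so neighbouring cortex samples were not separated beyond the spread at P0.

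let-7d was lowest in E10 in both runs, and its highest sample was P28 in run 1 and P14 in run 2. In run 2, let-7d was at 5433 TPM in E10, 8663 in E13, 14180 in E17, 13053 and 12934 in the P0 samples, 15776 in P3, 14692 in P7, 20516 in P14 and 18744 in P28. In run 1 it was at 7183 TPM in E10, 24124 in E13, 77345 in E17, 31311 and 17361 in the P0 samples, 17353 in P3, 52138 in P7, 43664 in P14 and 92806 in P28. P28 exceeded E10 by 12.9-fold in run 1 and 3.45-fold in run 2. The forebrain samples lay below every cortex sample in run 2, but in run 1 E13 lay above P0 sample 2 and P3. The P0 samples averaged 18665 ± 4974 TPM (SD, n = 2), and 5 of the 8 gaps in the order of averaged levels exceeded this SD, of which 3 had the same direction in both runs, among them the gap between E10 and the next sample. The runs of a sample differed by more than this SD in E13, E17, P0 sample 1, P7, P14 and P28, and in run 2 E17 lay below P3, P7, P14 and P28, so the order of these samples was not resolved.

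let-7e had its highest levels early. In run 2, let-7e was at 27483 TPM in E10, 39903 in E13, 20960 in E17, 15495 and 17749 in the P0 samples, 13289 in P3, 12474 in P7, 15868 in P14 and 17819 in P28. In run 1 it was at 30705 TPM in E10, 42628 in E13, 42046 in E17, 18814 and 11153 in the P0 samples, 10268 in P3, 11067 in P7, 17800 in P14 and 29063 in P28. E13 was the highest sample in both runs, the lowest was P3 in run 1 and P7 in run 2, and both runs gave higher values in P28 than in P7. In run 2 the forebrain samples lay above every cortex sample, whereas E17 lay above E10 in run 1. The P0 samples averaged 15802 ± 1912 TPM (SD, n = 2), and 6 of the 8 gaps in the order of averaged levels exceeded this SD, of which 4 had the same direction in both runs.

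For let-7i the runs gave different profiles. In run 2, let-7i was at 7114 TPM in E10, 13147 in E13, 24636 in E17, 17657 and 15819 in the P0 samples, 16810 in P3, 28282 in P7, 22953 in P14 and 27023 in P28, with both forebrain samples below every cortex sample. In run 1 it was at 13620 TPM in E10, 1836 in E13, 1924 in E17, 2670 and 11219 in the P0 samples, 12905 in P3, 3179 in P7, 2226 in P14 and 2138 in P28. P28 was 3.80-fold above E10 in run 2 but at 0.157 of E10 in run 1. The P0 samples averaged 11841 ± 2373 TPM (SD, n = 2), and a single gap of 8 in the order of averaged levels, between E13 and P0 sample 1, exceeded this SD.

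**Figure D2:**
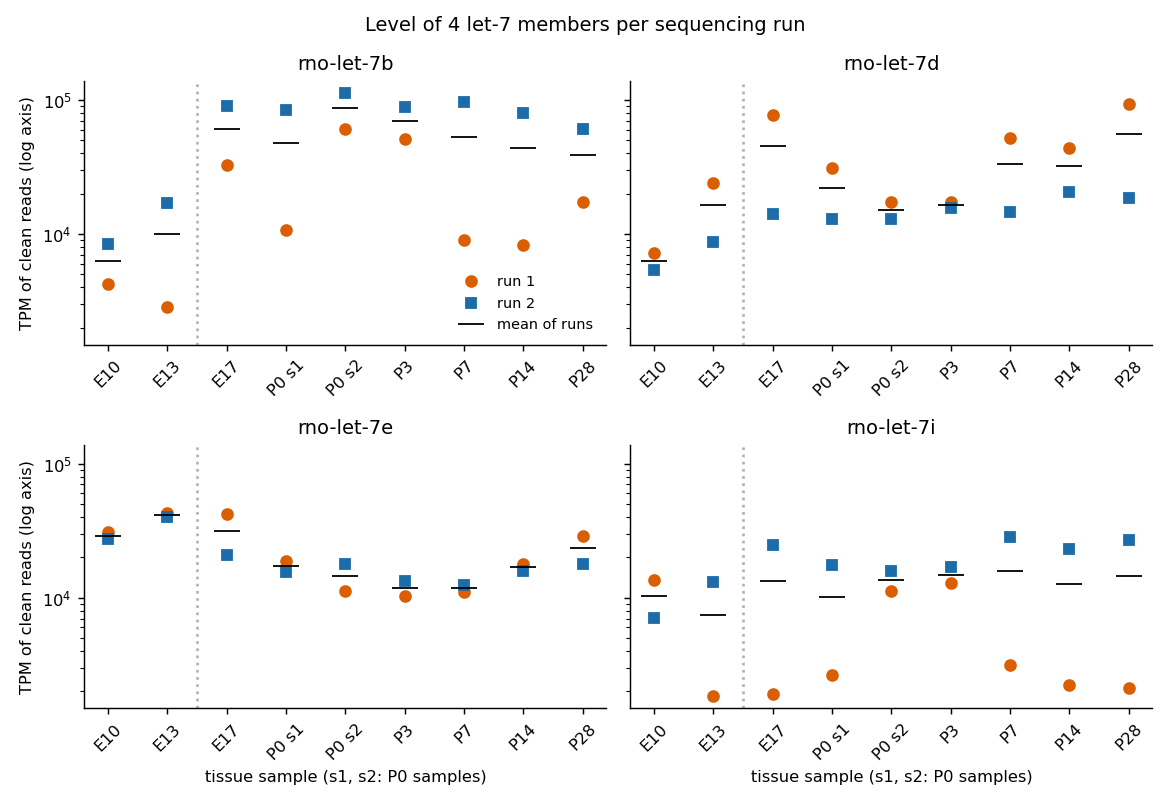
Levels of the 4 let-7 members in TPM on a log axis for the 9 tissue samples in stage order, with run 1 as circles, run 2 as squares and their mean as a dash; the dotted line parts forebrain (E10, E13) from cortex. let-7b steps up past the dotted line in both runs, and let-7e is highest in E13.

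The rank of the members within a library followed from these profiles. let-7e was the most abundant of the 4 in all 4 forebrain libraries, at 27483 to 42628 TPM. In run 2, let-7b was the most abundant in all 7 cortex samples. In run 1 it led in 2 of them, P0 sample 2 and P3, and let-7d led in the other 5. let-7i was never the most abundant and was the lowest in 6 libraries, all of run 1.

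Reads with the let-7 start made up 23.6% to 66.2% of a library and 94371926 reads in all. let-7b, let-7e and let-7i together held 8.16% to 24.3% of them (median 18.5%), and the rest belonged mainly to other family members. let-7c took 26.0% to 53.6% of the let-7 start of a library (median 44.5%), let-7a 10.4% to 24.8% (median 14.7%), let-7f 7.45% to 22.4% (median 14.2%) and let-7g 0.819% to 9.68% (median 2.78%). Among the members, let-7b took 1.21% to 17.1% (median 9.14%), let-7e 2.16% to 18.03% (median 3.77%) and let-7i 0.437% to 5.55% (median 2.69%), and their order differed between libraries. miR-98 stayed at or below 0.298%. Of the 10 most abundant tags outside the named members, which held 67.7% of the let-7 start, 6 were forms of let-7c, 2 of let-7a, 1 of let-7f and 1 of let-7g. The first of them was the full let-7c sequence with 15147668 reads. A further 3.41% of the let-7 start fitted no mature sequence, spread over 59288 different tags, and 0.486% fitted let-7a and let-7c alike. Tags that fitted a member and another miRNA equally were rare, with 326 reads shared by let-7a, let-7b and let-7c and 34 reads shared by let-7g and let-7i, and were counted apart.

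Shares of the let-7 start plus let-7d describe the members without the rest of the library, though from the same reads as their TPM. let-7e held 9.60% to 16.4% of these family reads in the 4 forebrain libraries and 2.08% to 8.16% in the 14 cortex libraries, without overlap. These libraries are runs of only 2 forebrain and 7 cortex tissue samples, and how many other features separate likewise was not counted. let-7c, the largest part of these family reads, was itself called lower in forebrain in the contrast given below. let-7b held 1.09% to 4.70% in forebrain and 2.62% to 16.7% in cortex, with the low cortex values all in run 1. The ranges of let-7d, 2.02% to 9.27% in forebrain and 1.92% to 23.3% in cortex, overlapped, and so did those of let-7i, 0.701% to 4.25% and 0.371% to 5.35%.

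**Figure D3:**
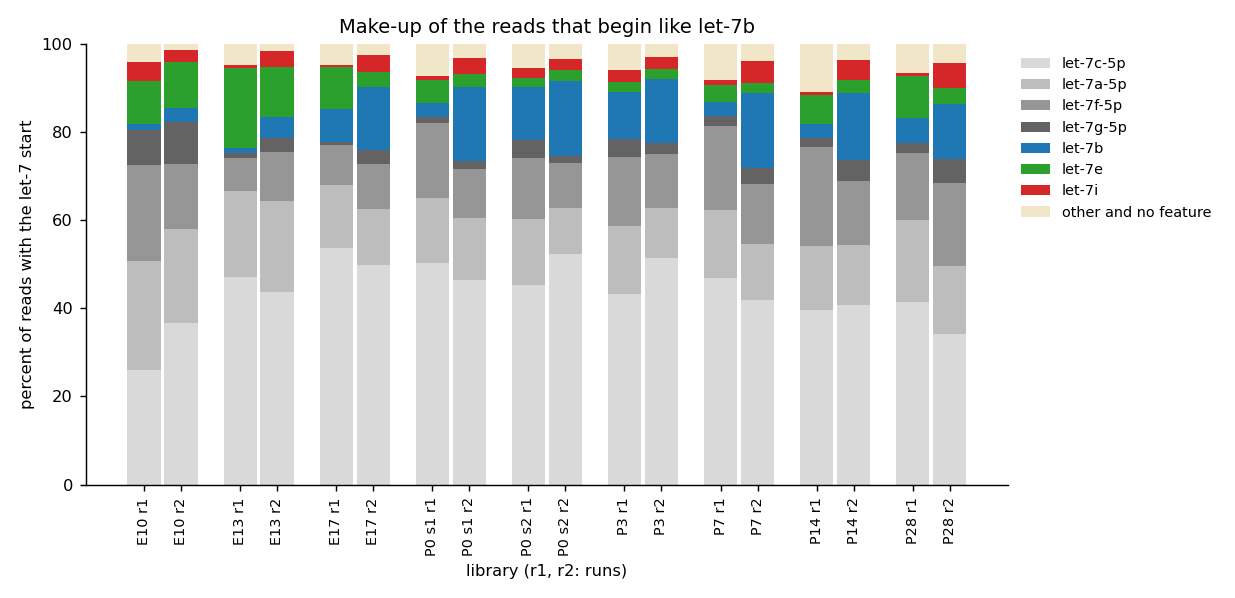
Stacked bars give the share of each family member, in percent, among the reads with the let-7 start in each of the 18 libraries (r1 and r2 are the runs). Grey parts are let-7c, let-7a, let-7f and let-7g, and the coloured parts are let-7b, let-7e and let-7i, which together hold 8.16% to 24.3%.

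Whether a member's level followed developmental age was tested by the slope of its counts on stage order, 1 for E10 to 8 for P28, with edgeR's quasi-likelihood test over 486 miRNA features and the runs of a tissue sample summed. No member passed: the test called 0 of 4 members, whereas 223 of all 486 features, 45.9%, passed at an adjusted p of 0.05, of which 76 rose and 147 fell with age (49 and 182 without TMM, edgeR's scaling between libraries). On the log2 scale let-7b gave a slope of 0.22 per stage (SE 0.29, adjusted p = 0.556), let-7d 0.23 (SE 0.15, adjusted p = 0.223), let-7e -0.10 (SE 0.10, adjusted p = 0.441) and let-7i 0.19 (SE 0.13, adjusted p = 0.256). The members' median slope was 0.20, beside a median of -0.10 over all features. In this fit none of the 4 had an unadjusted p below 0.05, and DESeq2 called none either. Without TMM let-7d and let-7i did (edgeR unadjusted p = 0.0329 and 0.0467), but neither passed after adjustment (edgeR adjusted p = 0.0642 and 0.0872). let-7d passed without E17 (0.40, edgeR adjusted p = 0.0258), and let-7b had a slope of -0.02 without E10 and of -0.28 within the cortex samples.

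The step between forebrain and cortex was then tested as a contrast of the E10 and E13 samples (n = 2) with the 7 later samples, which was chosen after the values had been seen. In edgeR's quasi-likelihood test let-7b was lower in forebrain by a log2 difference of -3.85 (SE 0.69, adjusted p = 0.00213), let-7d by -2.25 (SE 0.60, adjusted p = 0.0203) and let-7i by -1.76 (SE 0.49, adjusted p = 0.0233). let-7e showed a log2 difference of 0.03 (SE 0.50, adjusted p = 0.973). Thus 3 of 4 members were lower in forebrain, beside 34 of 486 features, 7.00%, called lower, and 105 of 486, 21.6%, called in either direction (19 without E10 and 52 without E13). These differences depend on the scaling between libraries: without TMM the median of all features moved from 0.14 to 1.11 with 179 higher and 13 lower in place of 71 and 34, let-7b stood at -2.83 (adjusted p = 0.000146) and let-7d at -1.41 (adjusted p = 0.0415), let-7e at 0.99 (adjusted p = 0.0432, higher in forebrain), and let-7i lost its call at -0.78 (adjusted p = 0.0870).

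For let-7b the difference was nearly the same in each run alone, at -3.88 in run 1 (edgeR adjusted p = 0.0839) and -3.75 in run 2 (edgeR adjusted p = 0.00382), with the call held by run 2. let-7d likewise gave -2.43 in run 1 (edgeR adjusted p = 0.100) and -2.06 in run 2 (edgeR adjusted p = 0.0225), and its call was lost without E10 (-1.55, edgeR adjusted p = 0.292). let-7i rested on run 2, where it stood at -1.97 (edgeR adjusted p = 0.0267) against -0.23 in run 1 (edgeR adjusted p = 0.917), and its call was lost without E10 (-1.51, edgeR adjusted p = 0.260) and without E13 (-1.89, edgeR adjusted p = 0.0927). The call of let-7i was lost as well when only reads identical to the annotated sequence were counted (-0.27, edgeR adjusted p = 0.759) and when E10 was taken from run 1 alone (-1.26, edgeR adjusted p = 0.0873). Stage and dissected tissue change together between E13 and E17 and cannot be told apart here. In bulk tissue, moreover, fewer cells of a type and less RNA per cell cannot be told apart.

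Some miRNAs known as markers of cell types also differed at this boundary. Those of mesenchyme (3 of 3 measured, mainly miR-199a-3p) summed to 17795 to 50488 TPM in the 4 forebrain libraries and to 83.0 to 2638 TPM in the 14 cortex libraries. Of the neural markers, 1 of 3 was measured, miR-128-3p, an miRNA enriched in neurons. It stood at 1459 to 7579 TPM in forebrain and 13445 to 221399 TPM in cortex. The other neural markers, miR-124-3p and miR-9-5p, had no match among the reference sequences used. The study lists miR-124 and miR-9 among its most abundant miRNAs at every stage, with miR-9 nearer the top at E10 than at P28. miR-128-3p therefore does not stand for neural miRNAs as a group. The ranges of the mesenchyme sum and of miR-128-3p did not overlap between forebrain and cortex libraries, whereas the ranges of the other lists did. How many of all features separate in this way was not counted, and the contrast above called 21.6% of them in either direction. Erythroid miRNAs (2 of 2 measured) summed to 68.1 to 1724 TPM in forebrain and to 25.9 to 89.9 TPM in cortex. For the same libraries the sums were 46.2 to 493 against 20.7 to 17616 TPM for oligodendrocyte miRNAs, 28.1 to 97.0 against 12.7 to 76.2 for endothelium, 0.157 to 47.0 against 0.110 to 1.73 for leucocyte, 55.9 to 545 against 6.43 to 2547 for muscle and 16.0 to 85.4 against 13.1 to 172 for liver miRNAs, and single markers were at 0 only in the muscle list. Their part in the differences of let-7b, let-7d and let-7i was not tested.

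The balance between members is free of the scaling between libraries, because it compares reads within a library. The ratio of let-7d to let-7e tended to rise with stage order in both runs. E10 and E13 also differed from the later samples in dissected tissue, which cannot be told apart from age here. In run 2 it was 0.198 in E10, 0.217 in E13, 0.677 in E17, 0.842 and 0.729 in the P0 samples, 1.19 in P3, 1.18 in P7, 1.29 in P14 and 1.05 in P28. In run 1 it was 0.234 in E10, 0.566 in E13, 1.84 in E17, 1.66 and 1.56 in the P0 samples, 1.69 in P3, 4.71 in P7, 2.45 in P14 and 3.19 in P28. let-7e thus exceeded let-7d in both forebrain samples in each run, and the forebrain and cortex samples did not overlap in either. How many pairs of other features separate likewise was not counted. With the runs summed, the log2 ratio was correlated with stage order at Pearson's r = 0.863 and Spearman's rho = 0.895 over the 9 tissue samples (2-sided exact permutation test of r, p = 0.00127, adjusted over 6 member pairs p = 0.00761). Run 1 alone gave r = 0.852 and run 2 alone r = 0.858 (exact permutation test, adjusted p = 0.0145 and 0.0102). The fitted line gained 0.43 on the log2 scale per stage, and 0.18 within the 7 cortex samples alone. Without E10 and P28, the samples farthest from the middle stage, r was 0.785 (exact permutation test, adjusted p = 0.0833), and within the 7 cortex samples alone r was 0.762 (exact permutation test, adjusted p = 0.15), so that neither passed. Without E10 alone r was 0.802 and without P7 alone 0.856 (exact permutation test, adjusted p = 0.0545 and 0.0521).

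**Figure D4:**
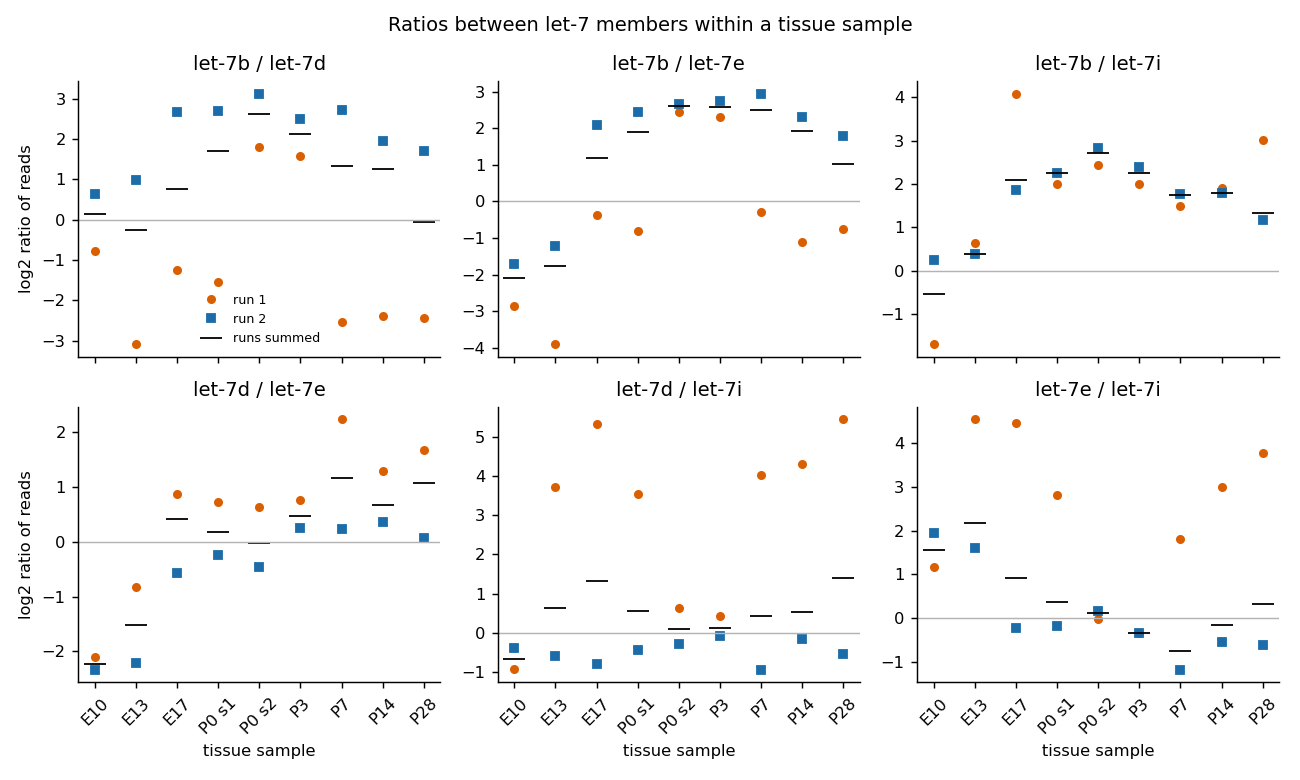
log2 of the TPM ratio between members for the 6 member pairs, 1 panel each, over the 9 tissue samples in stage order, with run 1 as circles, run 2 as squares and both runs summed as a dash. The ratio of let-7d to let-7e lies below 0 in E10 and E13 in both runs and above those values in every cortex sample, while the ratios of let-7b to let-7d and of let-7d to let-7i part widely between runs.

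None of the other 5 pairs passed. The ratio of let-7b to let-7e stepped up between E13 and E17 in each run, from 0.427 to 4.27 in run 2 and from 0.0670 to 0.775 in run 1, without a call against stage order (r = 0.653, rho = 0.452, exact permutation test, adjusted p = 0.119), although it passed without P28 (r = 0.814, exact permutation test, adjusted p = 0.0262). For let-7e over let-7i the summed runs gave r = -0.747 and rho = -0.753 (exact permutation test, p = 0.0208, adjusted p = 0.0623). In run 2 this ratio was 3.86 in E10, 3.04 in E13 and between 0.441 and 1.12 in the cortex samples (r = -0.830, exact permutation test, adjusted p = 0.0140), but run 1 gave r = 0.0258. With the runs summed it passed without P28 (r = -0.877, exact permutation test, adjusted p = 0.0146). The ratios of let-7b to let-7d, of let-7b to let-7i and of let-7d to let-7i gave r of 0.185, 0.474 and 0.479 (exact permutation test, adjusted p = 0.628, 0.238 and 0.238). let-7b exceeded let-7d in every library of run 2, by 1.55 to 8.71-fold, whereas in run 1 the ratio ran from 0.118 to 3.47.

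Many reads of the members ended before or past the annotated 3' end, and the members differed in this. The most abundant single form of let-7b and of let-7i was 3 nt shorter at the 3' end than the annotated 22 nt. These forms are shown because each outnumbered the annotated sequence of its member.
rno-let-7b, 19 nt: uGAGGUAGuagguugugug
rno-let-7i, 19 nt: uGAGGUAGuaguuugugcu
For let-7b the 19-nt form had 3261761 reads, 29.2% of its 11159554, and the annotated form 6.46%. For let-7i the 19-nt form had 1915820 reads, 62.5% of its 3065549, and the annotated form 7.71%, or 4.73% without run 2 of E10. For let-7d and let-7e the annotated 22-nt form led, with 68.1% of 4883752 and 48.0% of 4473636 reads. Taken by library, the most abundant single sequence was 19 nt long in 15 of 18 libraries for let-7b and in 17 for let-7i, and 22 nt long in all 18 for let-7d and in 17 for let-7e. The 5' end, which sets the seed, was the annotated one in 97.6% to 99.9% of a member's reads in a library.

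The exception for let-7i was run 2 of E10. Among reads with the annotated 5' end, the end 3 nt short made up in this library 0.0757% of let-7b, 0.0329% of let-7d, 0.0237% of let-7e and 0.241% of let-7i reads. In the 17 other libraries it made up 17.3% to 64.9% for let-7b (median 37.4%), 1.54% to 13.1% for let-7d, 1.93% to 27.1% for let-7e and 56.7% to 73.6% for let-7i. All 5 other family members likewise had their lowest value there. Ends 3 or 4 nt short were 0.0187% of let-7c reads in run 2 of E10 against 10.8% to 47.1% in the others, 0.0969% of miR-98 against 20.1% to 66.9%, 0.0207% of let-7a against 1.20% to 10.3% and 0.0257% of let-7f against 0.540% to 15.3%. For let-7g, of which few reads ended this short in any library, the values lay closer, at 0.00860% against 0.0206% to 2.82%. Run 1 of the same tissue sample is among these 17 libraries. The part of library preparation in this was not tested.

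**Figure D5:**
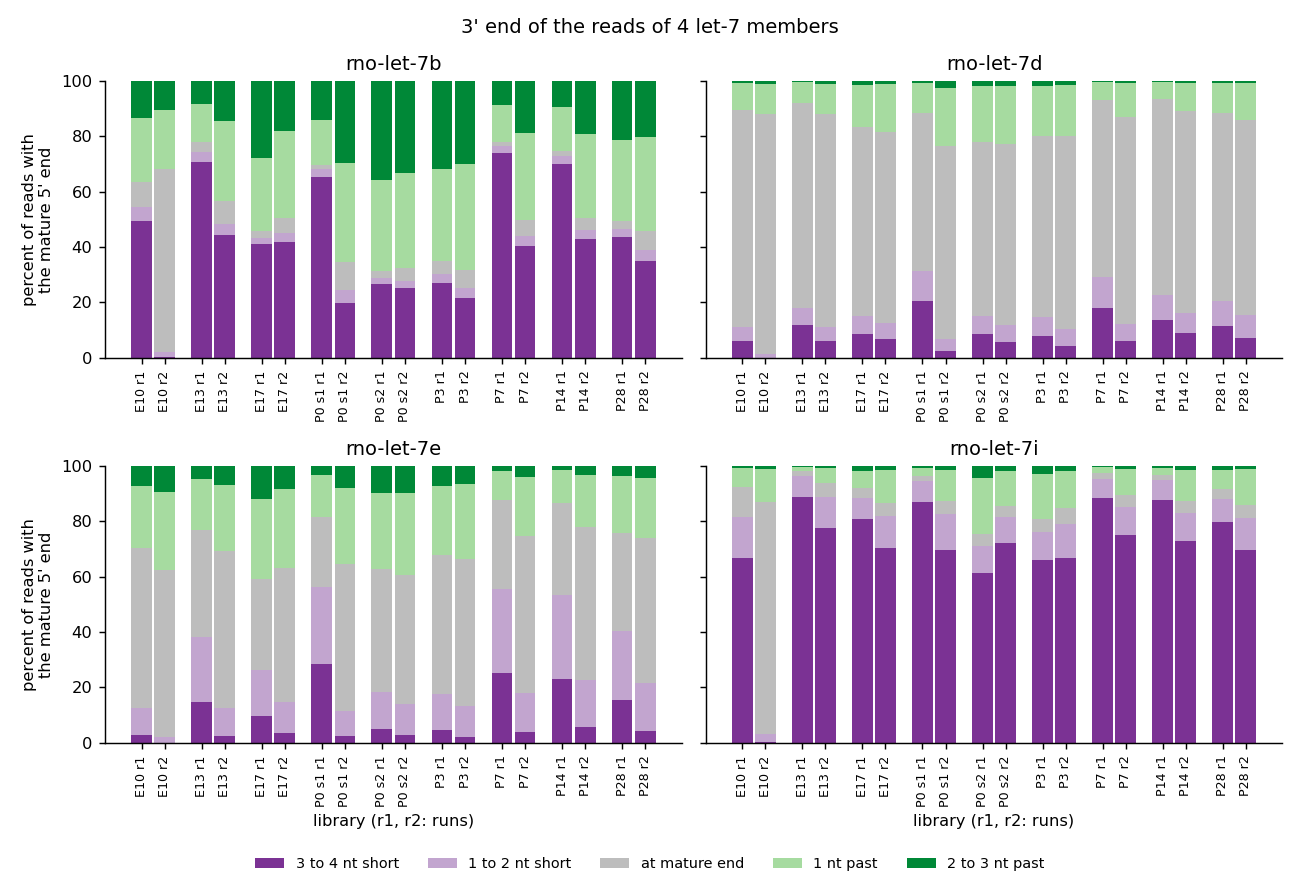
Stacked bars give the share of reads with the annotated 5' end, in percent, by the position of their 3' end relative to the annotated one, for the 4 members in each of the 18 libraries (r1 and r2 are the runs). The dark purple part, ends 3 to 4 nt short, is largest for let-7i and is nearly absent from run 2 of E10 in all 4 panels.

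Full-length reads were those with the annotated 5' end that reached the annotated 3' end or passed it. With runs summed they made up 49.4% to 84.7% of let-7b, 77% to 94.0% of let-7d, 69.0% to 93.4% of let-7e and 10.7% to 52.7% of let-7i in a tissue sample, and E10 gave the highest value for each. In E10 the runs differed, with let-7i at 18.3% in run 1 and 96.9% in run 2 and let-7b at 45.5% and 97.8%. In run 1 alone E10 was highest for let-7d and let-7e but lay below P0 sample 2 and P3 for let-7i, at 28.9% and 24.0%, and below these and E17 and P28 for let-7b. Against stage order the shares gave r = -0.368 for let-7b, -0.705 for let-7d, -0.741 for let-7e and -0.477 for let-7i (exact permutation test, adjusted over 4 members p = 0.325, 0.0644, 0.0644 and 0.289), so that none passed. In run 2 alone let-7d (r = -0.764, adjusted p = 0.0262) and let-7e (r = -0.886, adjusted p = 0.00465) passed the exact permutation test, and that run includes the E10 library that stands apart. With E10 from run 1 alone, r was 0.270 for let-7b and 0.159 for let-7i. The widest 95% Wilson interval of a share spanned 1.20 percentage points and covers counting error only.

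Reads longer than the annotated sequence were a large part of let-7b, at a median of 50.1% of its reads outside run 2 of E10, and a smaller part of let-7e (29.6%), let-7d (13.1%) and let-7i (10.5%). Terminal transferases add A or U to mature miRNAs, and a base that matches the precursor can also come from imprecise cutting. The first added base was A in 49.0% and U in 50.6% of such let-7b reads, and A in 41.9% and U in 57.7% of such let-7i reads. The next base of the let-7b precursor was not available, so added bases that match it cannot be told apart for let-7b. let-7d had A in 47.4% and U in 50.3%, where U is also the next base of its precursor. let-7e had A in 45%, U in 44.1% and G in 10.6%, with G being the next base of its precursor. G was rare for let-7b (0.173%) and for let-7i (0.329%), although it follows let-7i in the precursor as well. These shares are pooled over libraries, and those of A and U differed between them. A was first in 61.7% to 66.1% of longer let-7b reads in the 4 forebrain libraries and in 41.5% to 56.7% in the 14 cortex libraries, and in 64.9% to 68.0% and 41.0% to 54.7% of those of let-7d, without overlap for either. For let-7e (42.1% to 59.5% and 31.5% to 54.5%) and let-7i (44.2% to 59.5% and 33.8% to 55.9%) the ranges overlapped. The A share was not computed for other miRNAs, so it cannot be called particular to let-7b and let-7d. These libraries are runs of only 2 forebrain and 7 cortex tissue samples. The G share of let-7e was 31.9% in run 2 of E10 and 1.63% to 13.3% in the 17 other libraries.

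Because single changes separate let-7e from let-7a and let-7b from let-7c, a misread base would move reads from one to the other. The rate of the U9G change was read from the other family members, let-7b, let-7c, let-7d, let-7f and let-7g, where it gives no known miRNA, and was 0.116% to 0.386%. At these rates let-7a would account for 0.535% to 1.78% of the 22-nt reads counted as let-7e, and for 5.33% at most in a single library. The A17G change, which turns let-7c into let-7b, occurred at 0.0612% to 0.0910%, which would give 1.29% to 1.91% of the 22-nt reads counted as let-7b. In run 1 of E13, where let-7b was lowest, the same estimate came to 19.2% to 24.9%. In the other run 1 libraries it ran from 1.95% in E10 to 13.2% in P7. It stayed at or below 2.33% in run 2. The part of let-7c in the shorter let-7b forms was not estimated.

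Of the other family members and of neighbours in the same clusters, 9 were tested, while miR-99a-5p was not matched. edgeR's test on stage order called 0 of these 9, with a lowest adjusted p of 0.0843, beside 45.9% of all features. In the contrast of forebrain with cortex 2 of 9 were lower in forebrain, let-7c by -2.03 (edgeR adjusted p = 0.0278) and let-7f by -1.75 (edgeR adjusted p = 0.0204), beside 7.00% of all features, and the median over the 9 was -1.10, beside 0.14 over all features. Without TMM let-7c stood at -0.98 (edgeR adjusted p = 0.0131), let-7f lost its call at -0.71 (edgeR adjusted p = 0.0512), and the median over the 9 was -0.08, beside 1.11 over all features. With TMM, let-7a (-1.10, edgeR adjusted p = 0.0985), let-7g (-0.94, edgeR adjusted p = 0.241) and miR-98 (-1.15, edgeR adjusted p = 0.174) did not pass, and without TMM let-7a stood at -0.08, with 66889 TPM in E10 and 66021 TPM in P28 as means of the runs. Of the miRNAs that share a cluster with let-7e, miR-99b-5p gave 0.50 (edgeR adjusted p = 0.660), or 1.73 and higher in forebrain without TMM (edgeR adjusted p = 0.0271), and miR-125a-5p gave -0.80 (edgeR adjusted p = 0.375). Among the passenger strands 1 of 4 rose with age, let-7b-3p (slope 0.38, SE 0.14, edgeR adjusted p = 0.0383), which was scarce at 0.157 to 6.0 TPM, beside 15.6% of all features that rose. let-7d-3p was the most abundant passenger strand, at 17.8 to 84.9 TPM.

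The features whose levels over the 9 tissue samples were most like a member's were sought among the 154 features with a mean of at least 100 TPM, by Pearson's r of log2(TPM + 1). For let-7b these were miR-128-2-5p (r = 0.917), let-7c (0.899) and miR-128-3p (0.848). For let-7d they were miR-139-3p (0.753), the reads shared by let-7a and let-7c (0.721) and miR-128-3p (0.681). let-7e was most like miR-135a-3p (0.888), miR-505-5p (0.882) and miR-92b-3p (0.867), and let-7i like let-7f (0.863), miR-221-5p (0.793) and let-7b (0.729). Between members r was 0.570 for let-7b with let-7d, 0.469 for let-7d with let-7i, -0.0903 for let-7d with let-7e, -0.696 for let-7b with let-7e and -0.699 for let-7e with let-7i. These values describe 9 samples that share libraries, depth and scaling, and they were not tested.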

How the data were processed

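The files held tags, the trimmed small RNA sequences of a library, each with its count, deposited by the authors as clean tags after removal of adaptors and low-quality reads (18 libraries, 1 per tissue sample and run). The deposited counts were taken as they were, then scaled to TPM for levels and by TMM in the main edgeR tests. A tag of at least 18 nt was assigned to a mature RefSeq sequence (GRCr8) when it was identical over the common length, began no more than 3 nt from the mature start and ended at most 3 nt past the 3' end; tags fitting several sequences were counted apart. TPM was taken over all clean reads of a library.

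Counts of the runs of a tissue sample were summed, features reaching 10 counts in 2 or more tissue samples were kept, and slopes on stage order were tested with edgeR 4.0.16 (quasi-likelihood, TMM, Benjamini-Hochberg adjustment, threshold 0.05) in R 4.3.3. DESeq2 1.42.0 was an alternative. Ratios and shares were tested by exact permutation of the 9 samples (SciPy 1.17.1, Python 3.11.15). Both procedures were tested on simulated data. Features named are the members, their relatives and cluster neighbours, the 3 most alike features of each and the 10 most abundant other tags of the let-7 start. Members and lists were chosen with earlier results of these data known, and the contrast of forebrain with cortex and the use of E10 from run 1 alone were added after the data had been seen. The runs are labelled technical replicates and were not treated as independent, so only P0 (n = 2) gives a spread between tissue samples, and nothing in the sources says whether these came from separate litters. Depth was 4899010 to 16590379 reads per library, and 95% Wilson intervals cover counting error only.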

Additional observations from a re-analysis of the deposited data

How the results depend on the processing

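Beside leaving out samples, the alternatives were no TMM, DESeq2, no filter, each run alone, a replicate block and stricter tag rules. Further ones were cortex samples only, the first 18 bases as features, no E10 and P28, and E10 from run 1 alone. Of their values, 127 kept direction and side of the threshold or, for counts of features, stayed near the main count. Calls were lost in 9 and gained in 4, 15 values reversed direction, and 5 counts moved further. With a sample left out, 10 values reversed direction. The ratio of let-7d to let-7e held in each run, with identical tags and with tags seen in both runs (by Pearson's r; with identical tags the exact permutation test of rho gave an adjusted p of 0.0830), and was weaker in cortex alone (r = 0.762) and without E10 and P28 (0.785). In cortex alone the slopes of let-7b and let-7i were -0.28 and -0.051, and the ratios of let-7b to let-7d, let-7e and let-7i gave r = -0.521, -0.192 and -0.808. Run 1 alone gave a let-7i slope of -0.20, r = -0.182 for let-7b to let-7d and 0.0258 for let-7e to let-7i, 137 features past the slope threshold and 30 past the forebrain contrast. Run 2 alone gave r = -0.830 for let-7e to let-7i and full-length shares at -0.764 (let-7d) and -0.886 (let-7e). Identical tags gave r = -0.373 for let-7b to let-7d and a forebrain difference of -0.048 for let-7e. Without E10 and P28, r was -0.389 for let-7d to let-7i and, for full-length shares, 0.0276 (let-7b) and 0.228 (let-7i); with E10 from run 1 alone these shares gave 0.270 and 0.159. Features by first 18 bases gave 3902 past of 22359, and the forebrain contrast without TMM 192. The causes were not tested.

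With the run number as a replicate block over 18 libraries, which counts the technical runs of a tissue sample as separate and so makes p too small, slopes were 0.12, 0.25, -0.10 and 0.02 for let-7b, let-7d, let-7e and let-7i, none past the threshold, with 292 features past it. The forebrain contrast called 178 under this replicate block, with let-7i at -1.09 (edgeR adjusted p = 0.241).

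With each tissue sample omitted in turn, slopes ran from -0.021 to 0.59 (let-7b), 0.12 to 0.40 (let-7d), -0.16 to -0.06 (let-7e) and 0.10 to 0.35 (let-7i), with 146 (without P28) to 235 features past. r ran from -0.0164 to 0.585 (let-7b to let-7d), 0.454 to 0.814 (let-7b to let-7e), 0.0836 to 0.643 (let-7b to let-7i), 0.802 to 0.927 (let-7d to let-7e), 0.154 to 0.709 (let-7d to let-7i) and -0.877 to -0.672 (let-7e to let-7i). For full-length shares r ran from -0.669 to -0.0113 (let-7b), -0.761 to -0.521 (let-7d), -0.816 to -0.591 (let-7e) and -0.698 to 0.254 (let-7i). Forebrain differences ran from -4.56 to -3.23 (let-7b), -3.24 to -1.55 (let-7d), -0.46 to 0.53 (let-7e) and -1.98 to -1.51 (let-7i), with 19 to 149 features called. Most stages had 1 tissue sample, so the order of stages rests on single samples whatever the depth.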
